A study of Mus musculus with 64 samples.

Results

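The genes described here are 7 transcription factor genes of neural and preneural tissue: Sox1, Sox3, Sox21, Nkx1-2, Pax6, Hes5 and Olig3, out of 21938 protein-coding genes of the GENCODE annotation. Sox1 and Sox3 belong with Sox2 to the SOXB1 group of activators of the neural progenitor state, and Sox21 encodes a related SOXB2 protein that acts as a repressor. Nkx1-2 encodes a homeodomain protein of the caudal epiblast and of the preneural tube that derives from it. Pax6 encodes a paired-domain and homeodomain regulator of neural progenitors, Hes5 a repressor that is induced by Notch signalling in these cells, and Olig3 a basic helix-loop-helix protein of dorsal neural progenitors. The genes were chosen by name, and every peak whose summit lay in the gene or within 30 kb of it was taken as belonging to its window. A peak in a window is a position and not an assignment to the gene, and the files hold no expression values.

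The data are ChIP-seq peak lists of SOX2 and 4 mediators of WNT signalling: β-catenin, the co-activator that the pathway stabilises, and LEF1, TCF7L1 (labelled TCF3) and TCF7L2 (labelled TCF4), the DNA-binding proteins that it joins. SOX2 binds short A/T-rich letters through its HMG box and holds pluripotent and neural progenitor states, while LEF1 and the TCF proteins read a related but distinct sequence. Each target was precipitated in 4 conditions with 3 biological replicates, which gave 60 libraries with a list. A further 4 samples held input DNA and have no peak list here. Naive ESC were cells of the HM1 TetON line (strain HM1 (129)), which carries rtTA at Rosa26 and served as the wild type, kept in 2i medium, which contains CHIR99021 (a GSK3 inhibitor that activates WNT signalling) and PD0325901, without doxycycline. CEpiLC, caudal epiblast-like cells, were the same line differentiated without doxycycline in N2B27 with bFGF and LGK974, an inhibitor of WNT secretion, to which CHIR99021 was added on the last day, up to 72 h. SOX2-ON and SOX2-OFF were the SOX2 TetON line, derived from HM1 TetON by adding a doxycycline-inducible Sox2 transgene at the Hprt locus and ablating endogenous Sox2, and differentiated in the same way. Doxycycline was kept at 1 µg/ml in SOX2-ON and withdrawn in SOX2-OFF. This line came from picked clones, so a comparison of it with wild-type cells also compares lines. By this design naive ESC and SOX2-ON are the conditions of high SOX2, and the other 2 those of low SOX2. All 4 conditions were exposed to CHIR99021, but its concentration and duration differed between 2i medium and the differentiation. The contrast of naive ESC with CEpiLC thus differs in cell state and in CHIR99021 treatment as well as in SOX2.

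The 60 lists held 12175735 peaks, between 1628 and 991719 per library, and read depth is unknown. Lists were compared by rank, with the 20000 strongest peaks of each list kept by fold enrichment, the ratio of signal to local background that the authors deposited. Summits within 150 bp of each other were joined into a site, and a site is called recurrent here when at least 2 of the 3 libraries of any target and condition held a summit in it. The rank score of a site in a library is log2 of 20000 over the rank of its peak, so that 0 stands for no summit among the 20000 strongest. The lists share their strongest peaks unevenly. The share of the 1000 strongest sites of a library that another replicate of its group also held was 8.02% in naive ESC LEF1 replicate 1, 47.0% in CEpiLC TCF7L1 replicate 1, whose list was the shortest, and 51.7% in SOX2-ON TCF7L1 replicate 1. It was 43.9% to 78.7% in the other LEF1 libraries of naive ESC, SOX2-ON and SOX2-OFF. The 3 libraries named first are said to stand apart below, a choice made after the data were seen. LEF1 and TCF7L1 rank score differences are given with and without them at Nkx1-2 −16.9 and −15.9 kb and at Olig3 +15.8 kb. Those at other sites are given only with them.

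The 7 windows held 3726 of the deposited peaks, 617 of them among the 20000 strongest, and these fell into 231 sites, of which 40 were recurrent. Pax6 had 11 recurrent sites, Nkx1-2 10, Sox1 6, Olig3 5, Sox21 4, Hes5 3 and Sox3 1. The median of 5 compares with a median of 2 over all protein-coding genes, and the Pax6 and Nkx1-2 counts were reached or passed by 3.63% and 4.86% of these genes. The window of Sox3 was the emptiest, and 80.0% of genes had at least as many recurrent sites. Windows differ in length with the gene body, from 61.4 kb at Hes5 to 88.5 kb at Pax6.

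**Figure D1:**
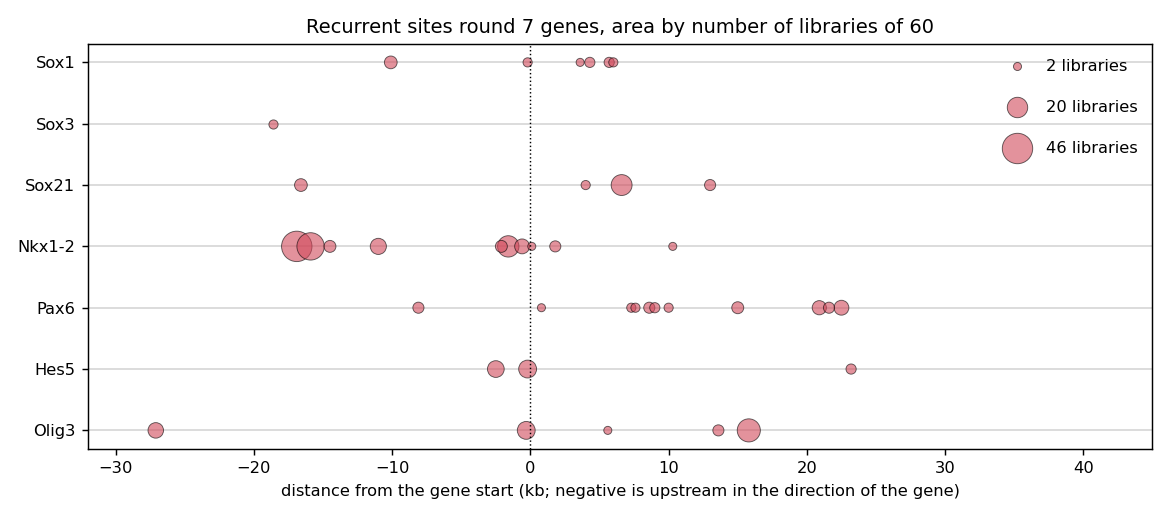
Position of the 40 recurrent sites relative to the start of the 7 genes (x axis, kb, negative is upstream), with the area of each circle set by the number of the 60 libraries that held the site among their 20000 strongest peaks. The largest circles are the Nkx1-2 sites at −16.9 and −15.9 kb, held by 46 and 37 libraries, and the Olig3 site at +15.8 kb, held by 26.

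The sequence of the most widely held site of each gene is shown because the sites differ in which of the proteins' letters they hold. Each runs 60 bp either side of the middle summit on the plus strand of mm10 and was read from the RefSeq copy of GRCm38. Capitals mark the letters CATTGT or CTTTGT (SOX), CTTTGAA or CTTTGAT (TCF/LEF) and TTTATTG or TTTATGG (CDX) on either strand. The neighbouring Nkx1-2 site at −15.9 kb is added, a choice made after its values were seen.
Nkx1-2 −16.9 kb, chr7:132616501-132616621: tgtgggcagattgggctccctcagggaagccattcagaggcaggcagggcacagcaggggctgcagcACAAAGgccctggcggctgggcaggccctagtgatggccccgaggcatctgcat
Nkx1-2 −15.9 kb, chr7:132615522-132615642: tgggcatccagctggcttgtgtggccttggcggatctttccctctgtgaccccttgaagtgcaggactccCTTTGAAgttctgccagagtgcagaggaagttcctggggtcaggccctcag
Olig3 +15.8 kb, chr10:19372305-19372425: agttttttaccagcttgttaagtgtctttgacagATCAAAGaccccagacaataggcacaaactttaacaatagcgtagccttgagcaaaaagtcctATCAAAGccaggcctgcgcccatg
Sox21 +6.6 kb, chr14:118230333-118230453: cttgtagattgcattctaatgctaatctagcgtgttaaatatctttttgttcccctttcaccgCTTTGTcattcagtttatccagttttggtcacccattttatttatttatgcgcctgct
Hes5 −0.2 kb, chr4:154960709-154960829: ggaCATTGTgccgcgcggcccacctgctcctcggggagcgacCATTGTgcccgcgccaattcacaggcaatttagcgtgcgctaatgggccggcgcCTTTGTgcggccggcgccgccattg
Pax6 +22.5 kb, chr2:105691332-105691452: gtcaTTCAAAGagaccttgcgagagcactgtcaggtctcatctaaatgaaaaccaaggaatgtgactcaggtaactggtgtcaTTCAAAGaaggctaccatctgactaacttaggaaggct
Sox1 −10.1 kb, chr8:12385150-12385270: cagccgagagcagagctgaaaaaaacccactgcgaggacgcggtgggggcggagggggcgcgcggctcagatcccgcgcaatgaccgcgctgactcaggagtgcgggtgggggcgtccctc
Sox3 −18.6 kb, chrX:60911989-60912109: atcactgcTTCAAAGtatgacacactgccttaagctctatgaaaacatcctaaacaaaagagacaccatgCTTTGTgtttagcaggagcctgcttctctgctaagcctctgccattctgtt

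Of the letters searched, the Hes5 window holds 3 runs for SOX and none for TCF/LEF, and the Olig3 window 2 runs for TCF/LEF and none for SOX. No other letters were searched. The pair of Nkx1-2 windows divides them, with SOX letters at −16.9 kb and TCF/LEF letters at −15.9 kb. The Sox1 window, of 70.2% G and C, holds none of the letters searched. Over the up to 3 most widely held sites of each gene, 19 in all, SOX letters were found in 10, TCF/LEF letters in 5 and CDX letters in 1. Among the 49777 recurrent sites of the genome read over the same length, the shares were 36.5%, 22.9% and 3.47%. A match of letters is a description and not evidence of binding.

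The question the study put to these libraries is how the level of SOX2 changes where SOX2 and the WNT mediators sit. A site was called as following high SOX2 when a target had it in 5 or 6 of the 6 libraries of high SOX2 and in 0 or 1 of the 6 of low SOX2, and as following low SOX2 in the reverse case. For SOX2 itself, 100 sites in the 7 windows were held by at least 1 of 12 libraries. Of these, 2 followed high SOX2, against 1.04% of all sites in the genome, and 0 followed low SOX2, against 0.645%. Both lay at Olig3, at +15.8 and −27.1 kb. For the 4 mediators, 4 of 257 pairs of site and target followed high SOX2 (0.596% of all pairs) and 1 followed low SOX2 (0.311%). All 4 again lay at Olig3, and the 1 low-SOX2 pair was β-catenin at Nkx1-2 −1.6 kb. These counts of at most 4 were not tested against the background shares.

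Rank scores were tested with an exact two-sided permutation test that exchanged the high and low labels within each cell line, adjusted by the Benjamini-Hochberg method over all sites of a target held by at least 3 of its 12 libraries. In the 7 windows, 54 pairs of site and target could be tested. Of these pairs 0 reached an adjusted p below 0.05, as did 0 sites in the genome, where the smallest adjusted p was 0.0593. The 400 assignments allow no p below 0.005. Without adjustment, 13 of the 54 had p below 0.05, against 17.8% of all SOX2 sites, 22.6% of those of β-catenin, 17.7% of TCF7L1, 13% of LEF1 and 12.6% of TCF7L2. Of the 54, 6 stood at 0.005, of which 3 were higher and 3 lower at high SOX2. At Nkx1-2 the −16.9 kb site was lower for SOX2 and TCF7L1 and the −15.9 kb site was lower for TCF7L1. The higher pairs were SOX2 and β-catenin at Olig3 +15.8 kb and SOX2 at Sox21 +6.6 kb. Among all sites tested by the exact permutation test, this smallest p was met by 3.66% of SOX2 sites as higher and 3.28% as lower. The shares of β-catenin sites were 4.34% higher and 4.09% lower, of LEF1 sites 0.119% higher and 4.11% lower, of TCF7L1 sites 2.2% higher and 1.23% lower, and of TCF7L2 sites 1.11% higher and 2.4% lower. A difference between the cell lines had an unadjusted p below 0.05 in 1 of the 54 pairs, LEF1 at Nkx1-2 −16.9 kb, against 6.58%, 6.05%, 4.03%, 4.75% and 5.76% of all sites for the 5 targets in the same order.

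The median difference in rank score, high minus low SOX2, was −0.29 over 19 member sites for SOX2, against 0.10 over all 22191 sites tested. It was −0.32 over 13 sites for β-catenin (0.11 over all), −1.16 over 8 for LEF1 (−0.81 over all), 0.15 over 8 for TCF7L1 (0.52 over all) and −1.13 over 6 for TCF7L2 (−0.38 over all). The medians over member sites thus stood below those of the genome for all 5 targets. They pool sites and not genes, and over the 5 targets the Nkx1-2 window gave the most tested pairs. For SOX2, 7 of the 19 sites were higher at high SOX2, against 53.4% of all SOX2 sites tested. TCF7L1 split evenly, with 4 member sites higher and 4 lower, against 73.6% higher over all. The 4 lower sites all lay at Nkx1-2 (−2.53, −2.71, −0.81 and −0.18), and the 4 higher at Olig3, Sox21 and Nkx1-2. No test was made of the differences between member sites and the genome, and they are not a trait shown for each of the 7 genes.

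**Figure D2:**
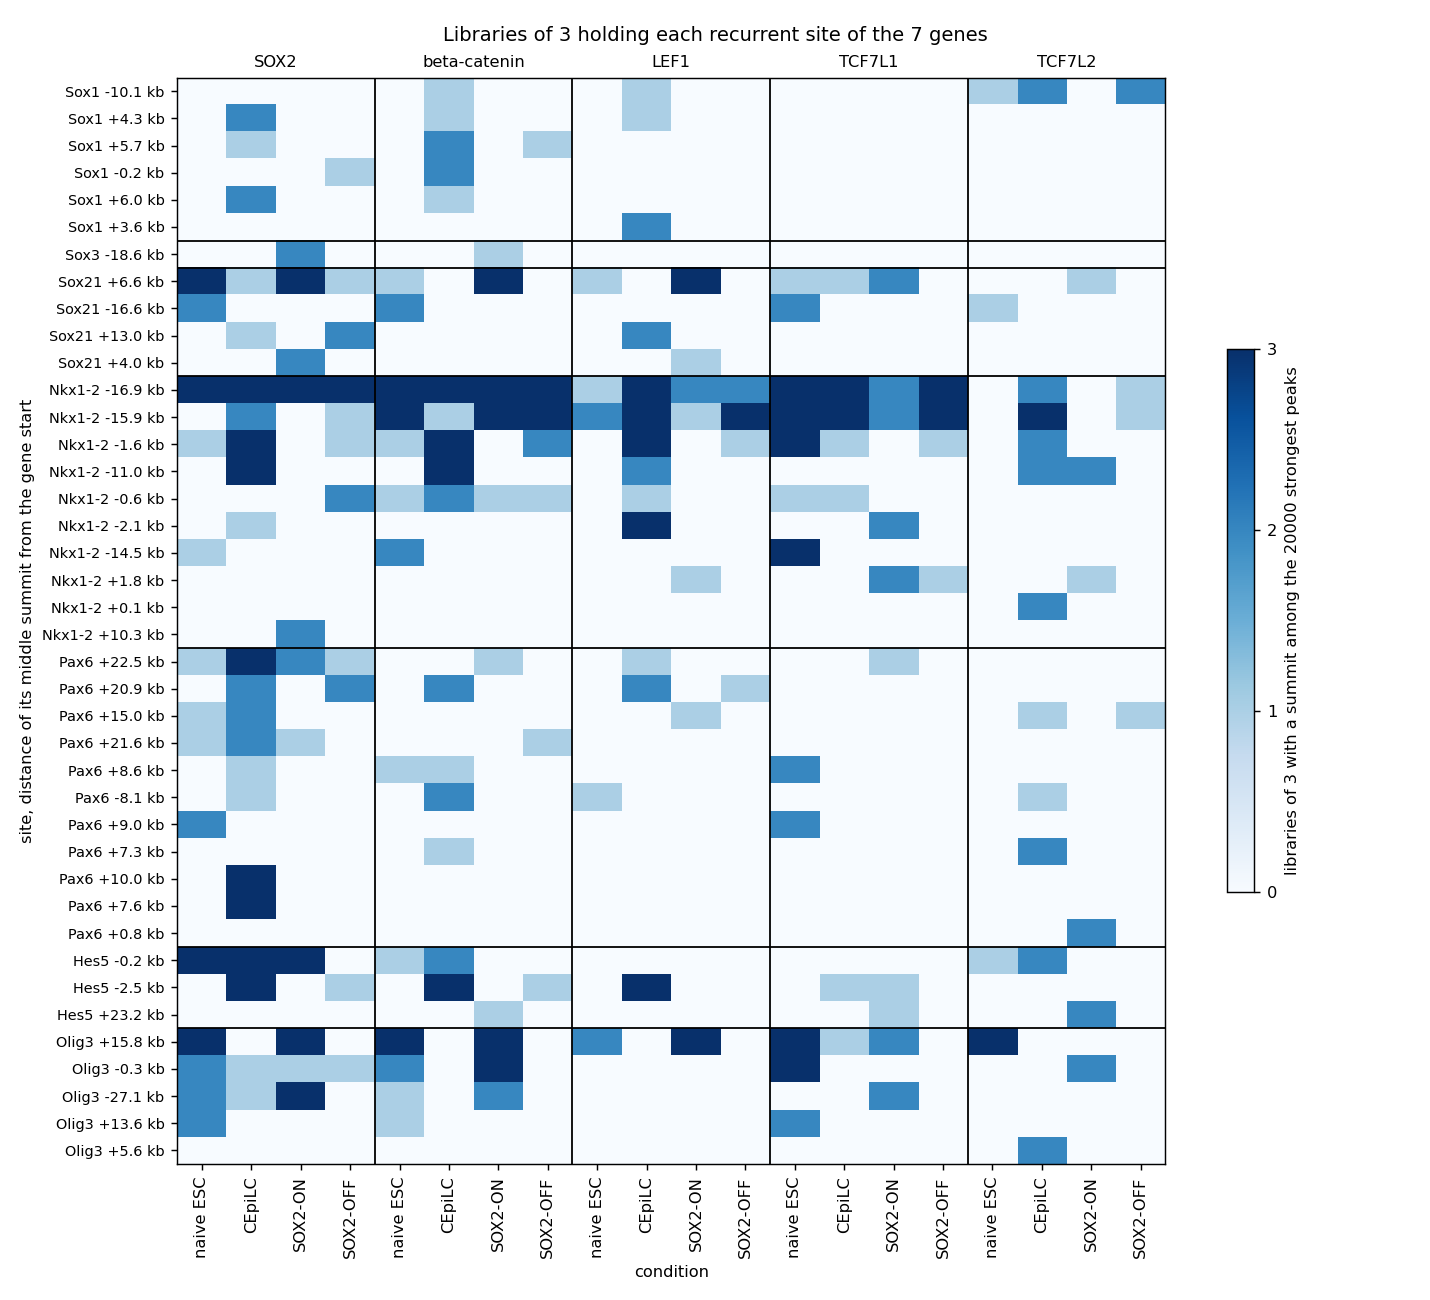
Number of the 3 libraries of each target and condition (columns) with a summit among their 20000 strongest peaks at each of the 40 recurrent sites (rows, named by gene and distance from its start), from 0 (white) to 3 (dark blue). The 2 uppermost Nkx1-2 rows are dark across most columns, the Olig3 +15.8 kb row is dark in naive ESC and SOX2-ON columns, and Sox1, Sox3 and Pax6 rows rarely reach 3.

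Nkx1-2, the preneural gene of the group, had the most widely held site of the 7 windows. The gene lies on the minus strand at chr7:132594878-132599637 inside an intron of Fgfr2, and its site at −16.9 kb lies in introns of both Fgfr2 and Lhpp, with the start of Lhpp as the nearest gene start. All 12 SOX2 libraries held it. The SOX2 fold enrichment was 58.5, 96.8 and 121 in CEpiLC and 32.9, 23.9 and 73.9 in SOX2-OFF. It was 24.1, 19.9 and 17.5 in naive ESC and 10.6, 7.87 and 18.0 in SOX2-ON. The peak was thus strongest in the cells with little SOX2, and ranked 12th, 5th and 7th of all SOX2 peaks in the CEpiLC lists. In naive ESC it ranked 980, 1678 and 1960, in SOX2-ON 4814, 9347 and 2085, and in SOX2-OFF 75, 473 and 34.

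The mean SOX2 fold at this site was 92.1 ± 31.5 (SD, n = 3) in CEpiLC, 43.6 ± 26.7 in SOX2-OFF, 20.5 ± 3.34 in naive ESC and 12.2 ± 5.24 in SOX2-ON. CEpiLC did not overlap naive ESC, and SOX2-OFF did not overlap SOX2-ON, but neighbours in this order overlapped: CEpiLC with SOX2-OFF, SOX2-OFF with naive ESC and naive ESC with SOX2-ON. The rank score difference was −7.62 for naive ESC minus CEpiLC and −5.42 for SOX2-ON minus SOX2-OFF, a mean of −6.52 (exact permutation test, p = 0.005, adjusted p = 0.0721). Only 9 of the 22191 SOX2 sites tested, this site included, had a difference as far below 0. The difference between the lines was −2.21 (exact permutation test of the difference between lines, p = 0.345, adjusted p = 0.609).

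β-catenin was present at the Nkx1-2 site at −16.9 kb in all 12 libraries, with a mean fold of 43.7 ± 12.2 (SD, n = 3) in CEpiLC, 24.9 ± 16.3 in SOX2-OFF, 19.6 ± 3.95 in naive ESC and 19.0 ± 9.49 in SOX2-ON. CEpiLC stood above naive ESC without overlap (50.2, 51.3 and 29.6 against 24.1, 16.7 and 18.0), and SOX2-OFF overlapped SOX2-ON (34.9, 6.08 and 33.7 against 24.6, 8.07 and 24.4). The rank score difference of β-catenin was −3.32 in wild-type cells and −0.76 in the SOX2 TetON line, a mean of −2.04 (exact permutation test, p = 0.025, adjusted p = 0.123).

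LEF1 had folds of 21.3, 22 and 17.3 at the Nkx1-2 −16.9 kb site in CEpiLC, and no other LEF1 library exceeded 11.8. Its rank score difference over both lines was −1.86 (exact permutation test, p = 0.2, adjusted p = 0.305), and −1.77 without the library that stood apart (p = 0.275, adjusted p = 0.405). The lines went apart, with −5.34 for naive ESC minus CEpiLC and 1.62 for SOX2-ON minus SOX2-OFF (exact permutation test of the difference between lines, p = 0.02, adjusted p = 0.307). TCF7L1, often a repressor of WNT targets, had ranks of 942, 841 and 996 in CEpiLC, the first in a list of 1628 peaks, and 1329, 1989 and 1064 in SOX2-OFF, against 5682, 7225 and 6059 in naive ESC. SOX2-ON ranked 5155 and 3215, with no peak in replicate 1, one of the 3 libraries that stood apart. The TCF7L1 difference was −2.53 (exact permutation test, p = 0.005, adjusted p = 0.13), and −2.15 without the libraries that stood apart (p = 0.01, adjusted p = 0.0628). The TCF7L1 fold ran the other way between the wild-type groups and overlapped, with 16.5 ± 7.13 (SD, n = 3) in naive ESC and 10.5 ± 2.84 in CEpiLC, so the direction belongs to the ranks within each list. TCF7L2 was among the 20000 strongest only in CEpiLC (2 of 3) and SOX2-OFF (1 of 3).

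**Figure D3:**
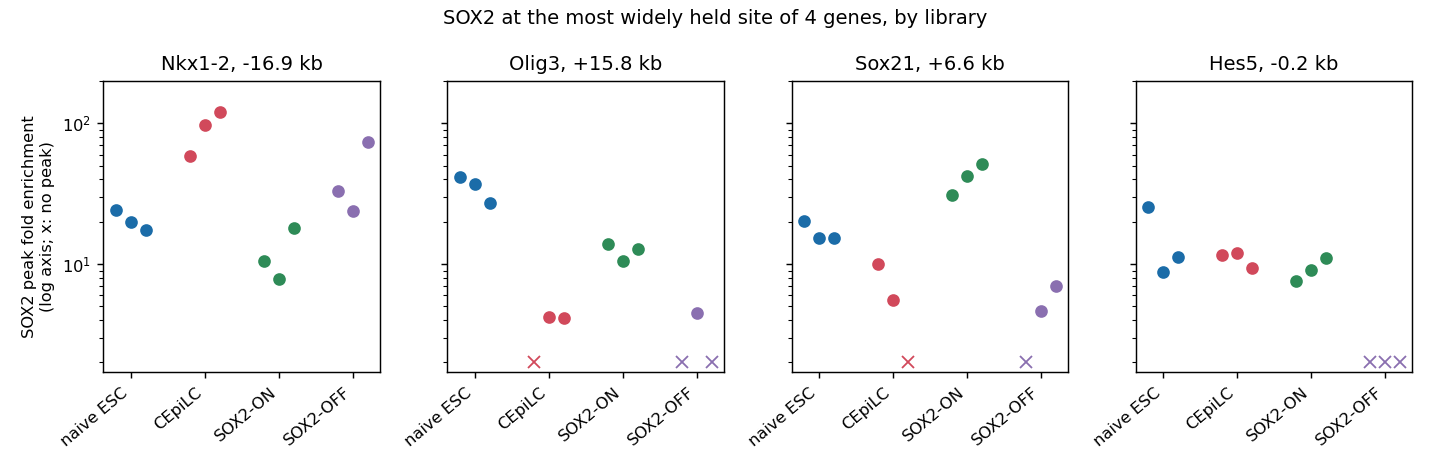
SOX2 peak fold enrichment (y axis, log scale) in each of the 12 libraries at the most widely held site of Nkx1-2, Olig3, Sox21 and Hes5, by condition, with a cross where the list held no peak. At Nkx1-2 the CEpiLC points lie between 58.5 and 121, at Olig3 naive ESC is highest, at Sox21 SOX2-ON is highest, and at Hes5 all 3 SOX2-OFF libraries are crosses.

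The Nkx1-2 site at −15.9 kb, 979 bp from the previous one and also in introns of Fgfr2 and Lhpp, was held by all 4 WNT mediators. TCF7L1 had folds of 44.0, 16.9 and 51.3 in naive ESC, 11.2, 21.5 and 16.1 in CEpiLC and 19.9, 19.2 and 33.9 in SOX2-OFF. The corresponding ranks were 948, 3022 and 1933, then 474, 321 and 469, then 565, 961 and 430. SOX2-ON again had no peak in replicate 1 and ranks of 4797 and 2484. LEF1 folds were 24.0, 33.9 and 27.1 in CEpiLC and 12.3, 8.27 and 18.9 in SOX2-OFF, against 2.78, 6.35 and 6.95 in SOX2-ON. In naive ESC 2 libraries had 15.0 and 19.4, and replicate 1, which stood apart, had no peak.

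The rank score difference at Nkx1-2 −15.9 kb was −4.02 for LEF1 (exact permutation test, p = 0.01, adjusted p = 0.177) and −2.71 for TCF7L1 (p = 0.005, adjusted p = 0.13). The TCF7L1 fold was 37.4 ± 18.1 (SD, n = 3) in naive ESC and 16.3 ± 5.15 in CEpiLC, so here too the direction belongs to the ranks, and CEpiLC replicate 1 ranked within a list of 1628 peaks. Without the libraries that stood apart the same exact permutation test gave −3.04 (p = 0.015, adjusted p = 0.141) and −2.34 (p = 0.01, adjusted p = 0.0628). TCF7L2 was in all 3 CEpiLC libraries, with folds of 9.83, 11.3 and 11.6, and in no naive ESC or SOX2-ON library among the 20000 strongest. SOX2 had a summit among the 20000 strongest in 2 of 3 CEpiLC libraries and 1 of 3 SOX2-OFF libraries. With any overlap of a deposited peak counted, SOX2 was there in 3 of 3 CEpiLC, 3 of 3 naive ESC, 2 of 3 SOX2-OFF and 0 of 3 SOX2-ON libraries. β-catenin was present with a mean fold of 25.0 ± 13.1 (SD, n = 3) in naive ESC, 12.5 ± 4.64 in SOX2-ON and 29.5 ± 17.9 in SOX2-OFF, while in CEpiLC only replicate 3 had a summit (fold 31.0). In CEpiLC β-catenin replicates 1 and 2 a single peak spanned both Nkx1-2 sites, 1878 and 1665 bp wide, and its summit was counted at −16.9 kb. The same held for CEpiLC SOX2 replicate 1, with a peak of 2060 bp. With any overlap counted, the SOX2 difference at −15.9 kb moved from −1.44 (exact permutation test, p = 0.2, adjusted p = 0.308) to −3.22 (p = 0.05, adjusted p = 0.207). With any overlap of a peak counted, the β-catenin difference at −15.9 kb moved from −0.29 (exact permutation test, p = 0.825, adjusted p = 0.874) to −2.70 (p = 0.005, adjusted p = 0.0652). Both overlap values give −15.9 kb the ranks of the wide CEpiLC peaks, whose summits lay at −16.9 kb. They thus partly repeat the values of that site and are not separate support for a difference at −15.9 kb. The count of 1 of 3 is therefore one of summits. Peak lists cannot tell whether β-catenin sat at −15.9 kb in CEpiLC replicates 1 and 2 or whether the neighbouring peak only extended over it.

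**Figure D4:**
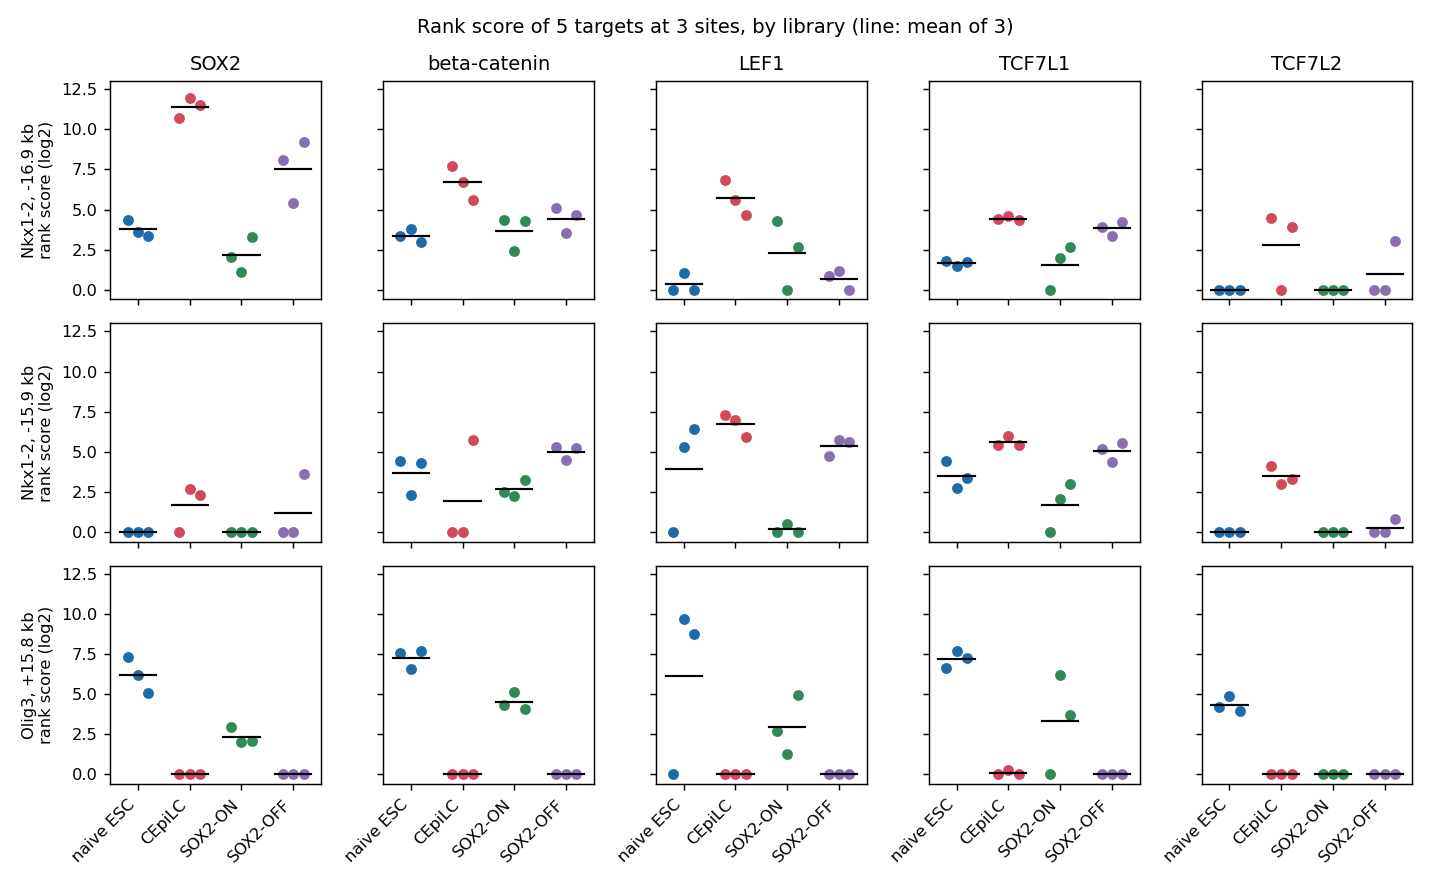
Rank score (y axis, log2 of 20000 over the rank, 0 where no summit was among the 20000 strongest) of each of the 5 targets (columns) in each library at 3 sites (rows), by condition, with a line at the mean of the 3 libraries. At Nkx1-2 −16.9 kb CEpiLC stands highest for SOX2 with a mean of 11.38, and at Olig3 +15.8 kb nearly all CEpiLC and SOX2-OFF points lie at 0.

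The next Nkx1-2 site, at −1.6 kb in the Fgfr2 intron next to the Nkx1-2 start, was held mainly in CEpiLC among the 20000 strongest peaks. All 3 CEpiLC libraries of SOX2, β-catenin and LEF1 held it, and no SOX2-ON library of any target did among its 20000 strongest. β-catenin folds were 15.1, 17.1 and 12.1 in CEpiLC against 5.64, 5.20 and 6.16 in naive ESC, without overlap. In SOX2-OFF they were 10.0 and 18.9, with no peak in replicate 2. Its rank score difference was −2.81 (exact permutation test, p = 0.02, adjusted p = 0.101). LEF1 folds in CEpiLC were 7.37, 9.23 and 6.22. SOX2 folds were 9.13, 11 and 9.19 in CEpiLC and 8.27, 10.6 and 3.98 in naive ESC, so that these groups overlapped. The SOX2 rank score difference was −1.09 (exact permutation test, p = 0.05, adjusted p = 0.199). TCF7L1 was in all 3 naive ESC libraries (8.95, 5.04 and 15.5) and in 1 of 3 CEpiLC libraries (8.58), but the latter ranked far higher in its list, 1498 against 17274, 17729 and 10493 (rank score difference −0.81, exact permutation test, p = 0.5, adjusted p = 0.606).

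The other 7 recurrent sites of the Nkx1-2 window were held by 2 to 12 libraries. At −11 kb, in a UTR of Lhpp, all 3 CEpiLC libraries of SOX2 and of β-catenin and no naive ESC library of either had a summit among the 20000 strongest, and weaker summits were listed in 2 naive ESC libraries of SOX2 and 1 of β-catenin. At −2.1 kb all 3 CEpiLC and no naive ESC libraries of LEF1 had a summit among the 20000 strongest. At −14.5 kb, in contrast, all 3 naive ESC libraries of TCF7L1 held the site and no CEpiLC library did, by the same limit. The site at −0.6 kb, the nearest upstream of the start, was held by 10 libraries and by all 3 of no group.

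Olig3, the dorsal neural tube gene, showed the reverse arrangement. It lies on the plus strand at chr10:19356533-19358604, and no other gene of the annotation falls in its window. Its main site, at +15.8 kb between genes, was held by 26 libraries, all but 1 of them from naive ESC or SOX2-ON. The SOX2 fold was 41.4, 37.3 and 27.1 in naive ESC and 13.8, 10.5 and 12.7 in SOX2-ON. CEpiLC had weak peaks of 4.20 and 4.11 in 2 libraries and SOX2-OFF of 4.48 in 1 library, all outside the 20000 strongest. The groups of high and low SOX2 did not overlap, and within the high level naive ESC stood above SOX2-ON.

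β-catenin had folds of 75.8, 36.2 and 80.0 in naive ESC and 24.2, 22.1 and 22.8 in SOX2-ON at the Olig3 +15.8 kb site, and no summit there in the 6 CEpiLC and SOX2-OFF lists. These naive ESC peaks ranked 105, 211 and 97 of their lists. TCF7L1 reached 83.6, 86.1 and 180 in naive ESC and 43.0 and 34.5 in SOX2-ON replicates 2 and 3, with no peak in replicate 1. Below the 20000 strongest, TCF7L1 peaks of 4.91 and 4.70 were listed in 2 SOX2-OFF lists, and a CEpiLC library had 6.29 at rank 16346. LEF1 had folds of 35.2 and 28.1 in naive ESC replicates 2 and 3, at ranks 24 and 46, against 4.50 at rank 88754 in replicate 1. In SOX2-ON LEF1 had 9.25, 6.87 and 16.0, and CEpiLC and SOX2-OFF had none. TCF7L2 had 9.78, 19.0 and 11.3 in naive ESC and was outside the 20000 strongest in every other library.

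The rank score at Olig3 +15.8 kb was higher at high SOX2 by 4.27 for SOX2 (exact permutation test, p = 0.005, adjusted p = 0.0721) and by 5.89 for β-catenin (p = 0.005, adjusted p = 0.0593). As large a rise was seen at 0.82% of the SOX2 sites and 0.151% of the β-catenin sites tested. The differences were 4.57 for LEF1 (exact permutation test, p = 0.02, adjusted p = 0.177), 5.19 for TCF7L1 (p = 0.02, adjusted p = 0.13) and 2.17 for TCF7L2 (p = 0.1, adjusted p = 0.318). Without the libraries that stood apart the exact permutation test gave 6.11 for LEF1 (p = 0.005, adjusted p = 0.0892) and 5.99 for TCF7L1 (p = 0.01, adjusted p = 0.0628). The wild-type contrast was larger than that in the SOX2 TetON line for every target. It was 6.18 against 2.36 for SOX2 and 7.28 against 4.50 for β-catenin. The test of the difference between lines gave p = 0.1 for both (exact permutation test, adjusted p = 0.271 and 0.244). All CEpiLC and SOX2-OFF scores of these 2 targets were 0 there, which left naive ESC against SOX2-ON, 3 libraries against 3. No smaller p was possible, so this test cannot decide whether the lines differed. The summits of β-catenin and TCF7L1 lay at medians of −3 and −15 bp from the middle of the site, and those of SOX2 at 25 bp.

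The promoter of Olig3 (−0.3 kb) and a site at −27.1 kb leaned the same way with smaller peaks. At −0.3 kb β-catenin folds were 9.51, 4.38 and 8.68 in naive ESC and 11.4, 5.84 and 10.5 in SOX2-ON, and no CEpiLC or SOX2-OFF list held a summit (rank score difference 1.26, exact permutation test, p = 0.02, adjusted p = 0.101). TCF7L1 was there in all 3 naive ESC libraries and in no CEpiLC library among the 20000 strongest. SOX2 at the promoter did not separate the levels (difference 0.55, p = 0.29, adjusted p = 0.424 by the exact permutation test). At −27.1 kb SOX2 folds were 15.5, 7.95 and 17.5 in SOX2-ON and 13.5 and 8.30 in naive ESC, with 4.91 in 1 CEpiLC library. No SOX2-OFF library had a summit there (difference 1.65, exact permutation test, p = 0.02, adjusted p = 0.129).

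Sox21, the SOXB2 gene, lies on the minus strand at chr14:118233232-118237030, and its main site is +6.6 kb from the start, beyond the end of the gene. SOX2 was strongest in SOX2-ON, with folds of 31.2, 42.6 and 51.2 at ranks 206, 64 and 56. Naive ESC had 20.3, 15.4 and 15.4, CEpiLC 9.95 and 5.54, and SOX2-OFF 4.65 and 7.03, with no peak in 1 library of each of the last groups. SOX2-ON lay above naive ESC and naive ESC above both others, and CEpiLC overlapped SOX2-OFF. The difference in rank score was 4.88 (exact permutation test, p = 0.005, adjusted p = 0.0721), a rise reached by 0.433% of the SOX2 sites tested. It was 2.16 in wild-type cells and 7.60 in the SOX2 TetON line (p = 0.05, adjusted p = 0.271 by the exact permutation test of the difference between lines).

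At the same Sox21 site β-catenin had folds of 36.0, 18.4 and 12.6 in SOX2-ON and 10.6, 6.05 and 3.68 in naive ESC. LEF1 had 10.7, 26.2 and 15.4 in SOX2-ON and 8.69 in a single naive ESC library. Neither target had a summit there in CEpiLC, and in SOX2-OFF β-catenin had 3.09 in 1 library and LEF1 had none. The rank score differences were 2.34 for β-catenin (exact permutation test, p = 0.05, adjusted p = 0.158) and 3.18 for LEF1 (p = 0.05, adjusted p = 0.213). The naive ESC LEF1 libraries include replicate 1, which stood apart. For TCF7L1 the difference was 1.08 (exact permutation test, p = 0.32, adjusted p = 0.434), with −0.08 in wild-type cells and 2.23 in the SOX2 TetON line. All 3 SOX2-ON libraries and no SOX2-OFF library of β-catenin and of LEF1 held this site among the 20000 strongest. The other 3 recurrent sites were held by 3 to 7 libraries. That at −16.6 kb was held in naive ESC alone, by 2 of 3 libraries of SOX2, β-catenin and TCF7L1 and 1 of TCF7L2.

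Hes5 lies on the plus strand at chr4:154960923-154962371. Its site at −0.2 kb, at the promoter, was held by SOX2 in all 3 libraries of naive ESC (folds 25.4, 8.84 and 11.3), CEpiLC (11.6, 11.9 and 9.34) and SOX2-ON (7.57, 9.08 and 11). No SOX2-OFF list held a peak there at any strength, nor one that overlapped the site. The first 3 groups overlapped one another. The 2 conditions of low SOX2 thus differed at this promoter, and the difference between SOX2 levels was small (rank score difference 0.58, exact permutation test, p = 0.345, adjusted p = 0.49). With 3 libraries against 3 the smallest two-sided p is 0.1. The WNT mediators were scarce there: β-catenin and TCF7L2 were each in 2 CEpiLC libraries and 1 naive ESC library among the 20000 strongest, and LEF1 and TCF7L1 in none.

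The Hes5 site at −2.5 kb was held in CEpiLC by all 3 libraries of SOX2 (7.92, 6.56 and 5.50), β-catenin (5.36, 4.71 and 4.82) and LEF1 (6.64, 7.88 and 7.23). No naive ESC or SOX2-ON library of these targets held it among the 20000 strongest. LEF1 had no summit in any other list, while SOX2 had weak peaks of 3.91, 4.88 and 6.76 in SOX2-OFF. Outside the 20000 strongest, SOX2 had a summit in 1 naive ESC and 1 SOX2-ON list, and β-catenin in 2 naive ESC and 1 SOX2-ON list. β-catenin also had a summit in 2 SOX2-OFF lists, 1 of them among the 20000 strongest. Its CEpiLC folds lay below the lowest fold kept in the naive ESC lists (5.90, 6.35 and 5.64). The rank score differences were −0.55 for SOX2 and −0.75 for β-catenin (exact permutation test, p = 0.05 for both, adjusted p = 0.199 and 0.158) and −1.32 for LEF1 (p = 0.1, adjusted p = 0.217). The third site, at +23.2 kb, lies in coding sequence of Plch2 and was held by 4 libraries, all SOX2-ON.

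Pax6, on the plus strand at chr2:105668900-105697364, had the most recurrent sites of the 7 genes. At its 3 leading sites no fold exceeded 10.5. The leading site, in an intron at +22.5 kb, was held by 10 libraries, 7 of them of SOX2, and by all 3 SOX2 libraries of CEpiLC alone (6.57, 10.3 and 6.12). SOX2-ON had 6.42, 8 and 7.16 and naive ESC 6.10, 8.01 and 3.67, so that the 3 groups overlapped (rank score difference −0.47, exact permutation test, p = 0.375, adjusted p = 0.52). At +7.6 and +10.0 kb, in UTRs of Pax6, all 3 CEpiLC libraries of SOX2 held the site among their 20000 strongest. No other library of any target did. Weaker SOX2 summits were listed in 1 SOX2-ON library at +7.6 kb and in 1 naive ESC library at +10.0 kb. The lowest SOX2 fold kept was 4.33, 5.92 and 5.32 in CEpiLC and 9.89, 6.34 and 6.02 in naive ESC, so these calls depend on the limit. At 2 further intronic sites, +8.6 and +9.0 kb, TCF7L1 was in 2 of 3 naive ESC libraries. LEF1 was held by more than 1 library of a group at a single Pax6 site, +20.9 kb, in CEpiLC.

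Sox1 and Sox3 are the SOXB1 genes, with 87 and 9 peaks among the 20000 strongest. Sox1, on the plus strand at chr8:12395295-12400126, overlaps an intron of the non-coding gene Sox1ot, and none of its 6 recurrent sites was held by all 3 libraries of a group. Its sites were held by CEpiLC more than by the other conditions: CEpiLC of SOX2, β-catenin or LEF1 had 2 of 3 libraries at 5 of the 6 sites, and no SOX2-ON library held any among its 20000 strongest. At +4.3 kb, in the Sox1 UTR, the SOX2 folds in CEpiLC were 10.8 and 5.74, and a peak of all 3 CEpiLC libraries overlapped it. The most widely held site, at −10.1 kb, was mainly one of TCF7L2, with folds of 4.69, 6.01 and 13.5 in CEpiLC and 5.69, 6.56 and 5.46 in SOX2-OFF, against 7 and 4.97 in naive ESC and 4.84 in SOX2-ON (difference −1.37, exact permutation test, p = 0.11, adjusted p = 0.341). Seen over the whole Sox1 window, all 3 CEpiLC libraries and no naive ESC library held a peak of SOX2 and of β-catenin among the 20000 strongest, as in 2.7% and 3.51% of all gene windows. By the same limit the window held SOX2 in 3 of 3 SOX2-OFF libraries. All 3 naive ESC lists of both targets had peaks there outside the 20000 strongest. The best folds overlapped: for β-catenin 5.45, 6.25 and 3.74 in naive ESC and 6.15, 5.14 and 6.11 in CEpiLC. For SOX2 they were 7.29, 5.27 and 3.87 against 10.8, 7.67 and 6.26. The lowest β-catenin fold kept was 5.90, 6.35 and 5.64 in naive ESC and 3.08, 1.61 and 1.54 in CEpiLC.

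Sox3, on the minus strand at chrX:60891366-60893430, had 9 peaks among the 20000 strongest over all 60 libraries, and 8 libraries with any. Its single recurrent site, at −18.6 kb between genes, was held by SOX2 in SOX2-ON replicates 1 and 3 (folds 8.90 and 8.04) and by β-catenin in SOX2-ON replicate 1 (9.31). Weak SOX2 peaks of 3.87 in naive ESC and 4.60 in SOX2-OFF lay outside the 20000 strongest, and CEpiLC had none. Of all protein-coding genes, 91.6% had at least as many libraries with a peak.

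Calls were also made for each contrast on its own. A site was called for a condition when all 3 of its libraries and none of the 3 of the other condition held it. Over the 5 targets, 10 of 357 pairs of site and target were called for CEpiLC against naive ESC (0.998% of all pairs) and 5 for naive ESC (1.96%). The CEpiLC pairs lay at Nkx1-2 (5 pairs), Hes5 (3 pairs) and Pax6 (2 pairs), and the naive ESC pairs at Olig3 (4 pairs) and Nkx1-2 (1 pair). With all deposited peaks counted the order was reversed, with 5 pairs for CEpiLC and 10 for naive ESC, so it depends on the limit of 20000. For SOX2-ON against SOX2-OFF, 8 pairs were called (0.874%), 5 at Olig3, 2 at Sox21 and 1 at Hes5, and 0 were called for SOX2-OFF (0.173%). With 3 libraries against 3, no single pair can reach p below 0.1.

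SOX2 and the mediators shared sites to differing extents in the 4 conditions. In CEpiLC, 14 member sites were held by at least 2 of 3 SOX2 libraries, and of these 6 were also held by at least 2 of 3 β-catenin libraries, 6 by LEF1, 5 by TCF7L2 and 2 by TCF7L1. Over all SOX2 sites in CEpiLC the shares were 36.9%, 22.1%, 12.4% and 11.6%. In naive ESC, of 9 member sites 6 were shared with TCF7L1 (60.3% of all), 4 with β-catenin (55.2%), 1 with LEF1 (7.74%) and 1 with TCF7L2 (9.03%). SOX2-ON had 9 and SOX2-OFF 4 such member sites, which shared 4 and 1 with β-catenin (36.1% and 39.4% of all). The naive ESC LEF1 and CEpiLC TCF7L1 counts each rest on 3 libraries of which 1 stood apart.

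A further 27 neural transcription factor genes, among them the Pax, Irx, Dbx, Nkx6, Olig, Neurog and Pou3f genes, were read over the same windows. Their median was 7 recurrent sites and 41 libraries with a peak, against 5 and 41 for the 7 genes and 2 and 32 for all genes. SOX2 was in all 3 libraries of CEpiLC at 23 of the 27, of naive ESC at 9, of SOX2-ON at 15 and of SOX2-OFF at 13. Over all gene windows the shares were 43.2%, 38.4%, 33.6% and 32.1%. For the 7 genes the counts were 5, 5, 5 and 3. β-catenin was in all 3 libraries of CEpiLC at 22 of the 27 and of naive ESC at 12 (32.9% and 35.4% of all windows). The windows held by most libraries were those of Gbx2 (60 libraries), Pax3 (58) and Pax7 (57), regulators of the midbrain and hindbrain boundary and of the dorsal neural tube.

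The genes whose windows followed the members most closely over the 60 libraries were found by Pearson's r of the highest rank score in each window. For Nkx1-2 they were Hoxb2, Hoxb1 and Hoxb3 (r = 0.81, 0.80 and 0.79), whose windows overlap one another. For Olig3 they were Agk, Impa2 and Smoc2 (0.87, 0.87 and 0.85), for Sox21 Ccdc115, Imp4 and Vmn1r89 (0.83, 0.83 and 0.82) and for Sox3 Gm49630, Gm14444 and P2ry10 (0.84 each). Those of Hes5 were Trpv2, Pou3f2 and Smad6 (0.70, 0.66 and 0.64), those of Sox1 Slc38a1, Taf2 and Srl (0.68, 0.64 and 0.63), and those of Pax6 included Igsf9 and Tagln2 (0.62 and 0.61). The 60 points share targets, conditions and list lengths, and for Sox3 most of them are 0, so that these values are a description of likeness.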

How the data were processed

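The authors aligned single-end reads to mm10 with the nf-core ChIP-seq pipeline and called narrow peaks with MACS2 in each library separately. No source used here names the input that served each library. The deposited lists give for each peak its coordinates, an integer score, the fold enrichment at the summit (a ratio to local background), and −log10 p-values and −log10 q-values. These values were used as deposited. The lists hold no counts, so depth is unknown and no counting error can be given, and 10 lists were shorter than 20000 peaks. The mitochondrial chromosome held 63 peaks, which were not used.

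Here, peaks were ranked within each list by fold (ties by −log10 p), and the 20000 strongest were joined into 615243 sites, padded by 75 bp. Gene bodies came from GENCODE M21. Replicates were labelled as biological, and p-values measure the spread between them. Permutation tests were exact, written in Python with numpy, and tested on simulated data. For each gene up to 3 recurrent sites, those held by most libraries, were described in full and the others by counts. The members and lists were chosen with earlier results of these data known. Alternatives changed the ranking, list length, q-value, summit distance, definition of occupancy, window and replicates, and, added after the data were seen, left out the 3 libraries that stand apart. An item among the genes most alike to a member is not reported here. Replicate numbers were checked as pairs: all 3 same-numbered deviations correlated over 0.1 only for TCF7L1 between SOX2-ON and SOX2-OFF (0.30, 0.27 and 0.20), a pairing seen in the data and not stated in the labels. By best match, own numbers paired in 14 of 15 libraries of the SOX2 TetON line, and the main test takes no account of this.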

Additional observations from a re-analysis of the deposited data

How the results depend on the processing

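Of the 355 values that the 41 named pairs of site and target took under the alternatives, 353 kept their direction. The exceptions were without replicate 3: β-catenin at Nkx1-2 −15.9 kb ran from −0.84 to 0.42, and TCF7L1 at Nkx1-2 −1.6 kb from −1.26 to 0.10, over the omissions of a replicate. An adjusted p below 0.05 was reached by 0 named pairs under every alternative except lists shortened to the shortest of the target, which gave 1, β-catenin at Olig3 +15.8 kb (5.89, exact permutation test, adjusted p = 0.0335). The difference between lines gave 0 pairs under every alternative run. With a replicate left out, both exact permutation tests have too few assignments for any p below 0.05. The result of 0 pairs was thus fixed in advance in those settings.

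With the replicate block, labels were exchanged only within a replicate number, and 0 named pairs had an adjusted p below 0.05. Its 64 assignments allow no p below 0.03125. An adjusted p below 0.05 would thus need most sites of a target at that value. SOX2 at Nkx1-2 −16.9 kb stayed at −6.52 (exact permutation test, p = 0.03125, adjusted p = 0.36). TCF7L1, whose numbers paired SOX2-ON with SOX2-OFF, gave −2.53 at Nkx1-2 −16.9 kb and −2.71 at −15.9 kb with the replicate block (exact permutation test, p = 0.03125 for both), and 5.19 at Olig3 +15.8 kb (p = 0.0625), each with adjusted p = 0.337. In the other 9 comparisons not all 3 same-numbered pairs passed 0.1, which does not show that pairing was absent. Over all 10, same-numbered deviations correlated between −0.04 and 0.3, over 0.1 in 11 of 30 pairs, and own numbers correlated best in 14 of 15 libraries of the SOX2 TetON line and 4 of 15 of the wild type.

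Counts of calls were small and moved with the settings. With all deposited peaks, 1 SOX2 site followed high SOX2, 10 pairs were called for naive ESC, 5 for CEpiLC and 13 for SOX2-ON. The order of naive ESC and CEpiLC was thus the reverse of that with the 20000 strongest. Shortened lists gave 2 mediator pairs that followed high and 2 that followed low SOX2, 5 for SOX2-ON and 2 for SOX2-OFF. A window of 10 kb gave 0 SOX2 sites and 1 mediator pair that followed high SOX2, 1 for naive ESC and 4 for SOX2-ON. Any overlap of a peak gave 1 SOX2 site that followed low SOX2 and 17 pairs for CEpiLC. Ranking by −log10 p gave 0 mediator pairs that followed low SOX2, and joining summits at 300 bp gave 1 for SOX2-OFF. With a replicate left out, a call needs fewer libraries for the single contrasts, which ranged from 8 to 13 for naive ESC, 15 to 20 for CEpiLC, 10 to 15 for SOX2-ON and 1 to 3 for SOX2-OFF. The calls by SOX2 level, which then needed every library, were 1 for SOX2, 1 to 2 for mediators at high SOX2 and 0 at low SOX2. Without the 3 libraries that stood apart, 5 mediator pairs followed high SOX2 and 1 low SOX2. Read depth is unknown, so an absent summit cannot be told from a shallow library.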
